A study of Mus musculus with 16 samples.

Results

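The genes described here are 10 genes of the tight junction, namely 7 claudins (Cldn2, Cldn3, Cldn4, Cldn7, Cldn8, Cldn15 and Cldn23), occludin (Ocln) and the scaffold genes Tjp1 and Tjp3. They were chosen by name from the 18850 named genes on the arrays, with earlier results of these data known. Each had 1 probe set, and all 10 were bright enough to be tested. RNA was measured on single-colour Affymetrix arrays, 1 per sample, in mouse colon organoids, which are cultured balls of colon epithelium kept in a medium with EGF, Noggin and R-spondin (ENR). There were 4 groups of 4 arrays. Mutant + TNFa and mutant organoids had changed Atf2 and Atf7 alleles, whereas WT + TNFa and WT organoids were wild type at both. The groups with TNFa in their names received recombinant tumour necrosis factor alpha (TNFa) at 50 ng/ml for 12 h. The labels contradict each other on the mutant, which is given as ATF2 fl/fl / ATF7 KO in one field and as an Atf2 knockout with floxed Atf7 in another. They name no Cre and do not say whether the floxed allele was recombined, so loss of both factors is not known. They also do not say whether the 4 numbered samples of a group came from separate animals or cultures, so the p-values measure only the spread between these samples, which may be technical.

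Tight junctions seal the space between neighbouring epithelial cells near their apical side. Claudins are the membrane proteins that form the strands of the seal, and the set of claudins a cell makes decides which ions and how much water pass between cells. Some claudins, such as claudin-2 and claudin-15, form channels for small cations, whereas others, such as claudin-4 and claudin-8, tighten the seal. Occludin is a strand protein of another family, and the scaffolds ZO-1 (encoded by Tjp1) and ZO-3 (Tjp3) tie the strands to actin. In inflammatory bowel disease and in epithelia exposed to TNFa the make-up of these strands is known to shift and the barrier to leak.

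The organoids had the marker genes of epithelium, and the arrays of each group resembled each other. All 8 epithelial markers (Epcam, Vil1, Cdx2 and keratin genes among them) were above the 40th percentile of their arrays in all 4 arrays of every group. Of the fibroblast and smooth muscle, immune and endothelial markers on the arrays, 3 of 8, 1 of 7 and 1 of 6 were bright enough to be tested. Array WT + TNFa 2 stood apart, with a mean correlation of 0.989 with the others of its group against 0.993 for each of those. Without it as many of the 10 genes were called in every comparison below. TNFa raised all 5 genes used to check the treatment in both genotypes, Ccl20, a chemokine, by 4.25 log2 in mutant and 4.15 in WT organoids. Atf2 signal changed by -0.02 log2 in mutant against WT organoids (limma, adjusted p = 0.942). Where that probe set lies in the gene is not known here, so it checks no deletion. Atf7 was not analysed here.

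The promoters of Cldn15, Cldn4, Cldn2 and Cldn7 are shown because the first 3 genes were called with TNFa in WT organoids and the last, which was not called, holds the palindrome that ATF2 is known to bind. Each sequence is the 250 bases before a RefSeq start (GRCm38.p6), 5′ to 3′ on the gene's strand, and capitals mark every match to 4 motifs on either strand. The motifs were the AP-1 site TGANTCA, the CRE TGACGTCA, the NF-kB site and the core of CDX sites, TTTAT. The stretches lie at chr5:136967619-136967868 (+ strand), chr5:134946935-134947184 (- strand), chrX:139800558-139800807 (+ strand) and, for the downstream of the 2 starts of Cldn7, chr11:69965171-69965420 (+ strand).
Cldn15: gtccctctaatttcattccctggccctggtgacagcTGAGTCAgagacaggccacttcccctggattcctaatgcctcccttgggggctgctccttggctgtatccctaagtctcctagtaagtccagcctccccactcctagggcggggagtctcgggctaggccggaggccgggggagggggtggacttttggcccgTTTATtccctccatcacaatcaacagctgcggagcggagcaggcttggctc
Cldn4: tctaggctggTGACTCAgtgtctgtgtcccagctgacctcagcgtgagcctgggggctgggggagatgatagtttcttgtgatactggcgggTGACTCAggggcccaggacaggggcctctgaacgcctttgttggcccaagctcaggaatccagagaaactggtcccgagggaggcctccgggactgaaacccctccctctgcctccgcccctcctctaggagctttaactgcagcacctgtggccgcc
Cldn2: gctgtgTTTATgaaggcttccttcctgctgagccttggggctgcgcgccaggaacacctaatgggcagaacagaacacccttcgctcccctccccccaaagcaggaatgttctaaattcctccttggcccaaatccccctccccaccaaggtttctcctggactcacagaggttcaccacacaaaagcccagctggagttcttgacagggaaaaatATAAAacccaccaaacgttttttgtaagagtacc
Cldn7: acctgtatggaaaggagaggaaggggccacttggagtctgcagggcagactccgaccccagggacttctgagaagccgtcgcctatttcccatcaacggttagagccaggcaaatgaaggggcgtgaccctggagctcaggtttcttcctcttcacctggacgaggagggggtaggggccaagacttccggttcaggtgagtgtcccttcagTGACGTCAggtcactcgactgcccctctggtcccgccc
Cldn4 held 2 AP-1 sites and Cldn15 held 1, where 6.75% of all 32851 promoters of this length held any. Cldn7 held the CRE, at 31 bases before its downstream start, and 1.55% of promoters did. The CDX core is short and was in 37.3% of promoters. Cldn2 held 2 cores, of which the nearer lies inside a TATAAA, and Cldn15, Tjp1 and Tjp3 held cores too. No promoter among the 8 of the 10 genes with an entry held the NF-kB site, which 3.90% of all promoters held. A match is a description of letters and not a site shown to be bound. Cldn8 and Cldn23 had no entry.

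With TNFa the channel claudin Cldn15 and the barrier claudin Cldn8 were lower and the barrier claudin Cldn4 was higher in both genotypes, and the barrier claudins Cldn3, Cldn7 and Cldn23 were called in neither. In mutant organoids 2 of the 10 genes rose (Cldn4 and Tjp3) and 2 fell (Cldn8 and Cldn15), where 5.98% of 11766 tested genes were called, 3.51% higher and 2.47% lower. In WT organoids 1 rose (Cldn4) and 3 fell (Cldn2, Cldn8 and Cldn15), where 10.8% were called, 5.03% higher and 5.75% lower. A gene was called at a Benjamini-Hochberg adjusted p under 0.05 over all tested genes in limma. All these changes were below 1.5-fold. The median size of change over the 10 genes was 0.16 log2 in mutant and 0.17 in WT organoids, against 0.07 and 0.09 over all tested genes. The groups did not overlap for 4 of the 10 genes in mutant and 5 in WT organoids, against 13.9% and 14.2% of tested genes. Since the 10 genes were chosen with earlier results of these data known, these counts and sizes describe them and do not test them as a set. Without array WT + TNFa 2 the changes with TNFa in WT organoids were -0.54 log2 for Cldn8, -0.47 for Cldn2, -0.45 for Cldn15 and 0.31 for Cldn4, all still called. In bulk RNA, fewer cells of a type and less RNA per cell cannot be told apart.

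**Figure D1:**
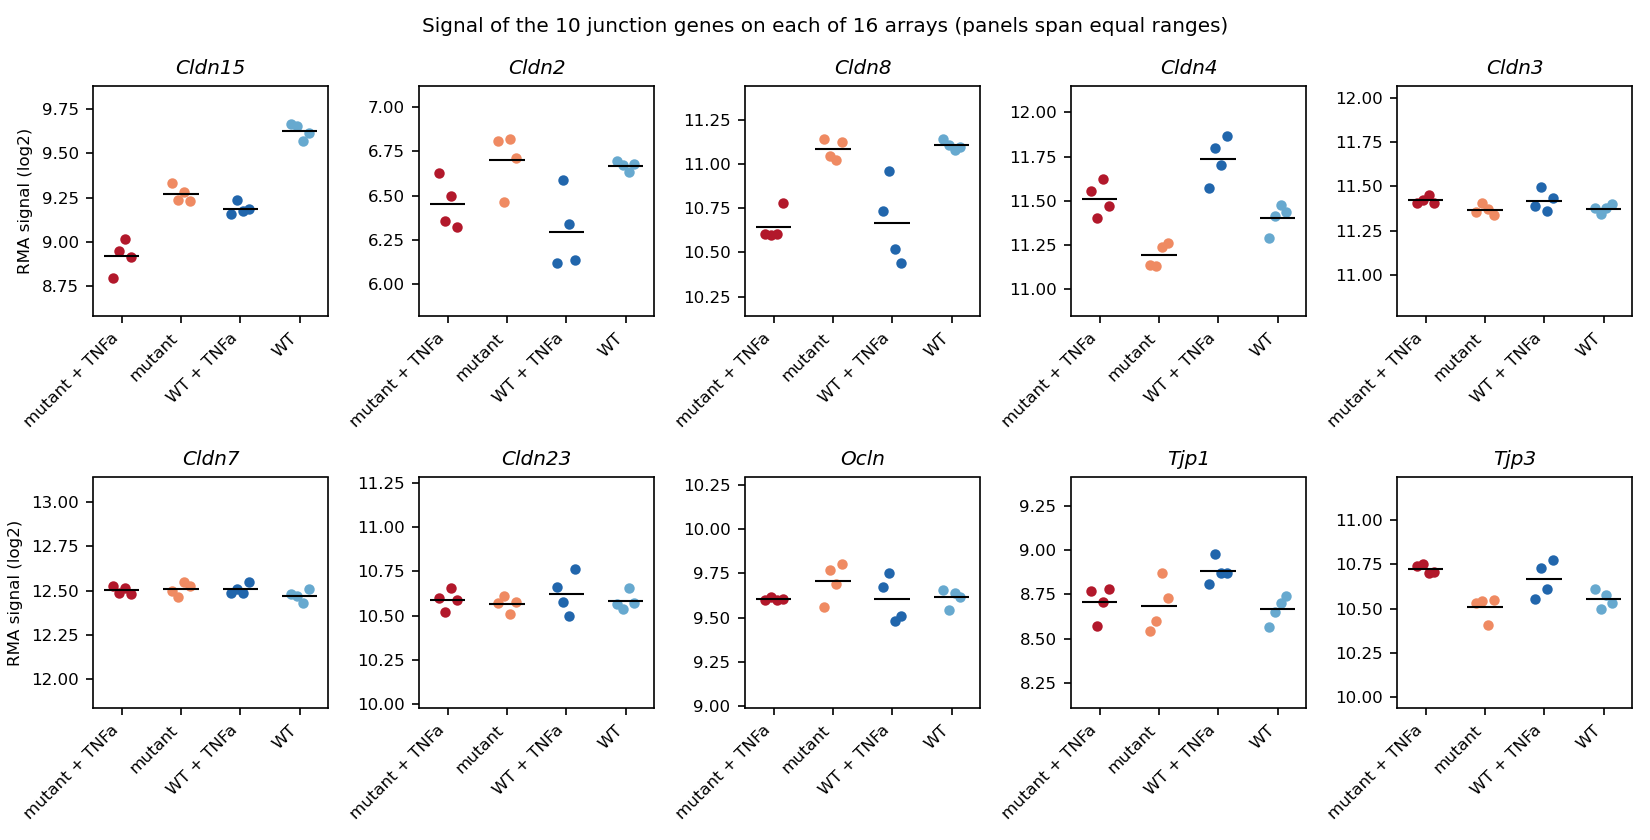
RMA signal (log2) of each of the 10 junction genes on the 16 arrays, by group. Points are arrays, bars are group means, and panels span equal ranges. For Cldn15, all 4 mutant + TNFa arrays (8.80 to 9.02) lie below all other arrays, and all 4 WT arrays (9.57 to 9.66) lie above them.

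Cldn15 encodes a cation channel that in the mouse small intestine returns sodium to the gut lumen. Its log2 signal was 8.80, 8.95, 9.02 and 8.91 in mutant + TNFa organoids, against 9.33, 9.24, 9.28 and 9.23 in mutant organoids. In WT + TNFa organoids it was 9.16, 9.24, 9.17 and 9.18, against 9.66, 9.65, 9.57 and 9.62 in WT organoids. Every treated array thus lay below every untreated one of its genotype. TNFa lowered Cldn15 by 1.28-fold in mutant (log2 change -0.35, SE 0.05, limma adjusted p = 4.70e-04) and by 1.35-fold in WT organoids (-0.44, SE 0.05, adjusted p = 3.52e-05). Both calls held under every alternative processing tried and without any 1 array.

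Cldn2 encodes the cation and water channel that is typical of leaky epithelia and of crypts. It was the dimmest of the 10, above its array's 40th percentile (6.40 to 6.56 log2) on 10 of the 16 arrays. Its log2 signal was 6.63, 6.36, 6.50 and 6.32 in mutant + TNFa organoids, against 6.81, 6.46, 6.82 and 6.71 in mutant organoids. WT + TNFa organoids had 6.12, 6.59, 6.34 and 6.14, against 6.69, 6.67, 6.63 and 6.68 in WT organoids. The mutant groups overlapped and the WT groups did not. TNFa lowered Cldn2 in WT organoids by 1.30-fold (log2 change -0.37, SE 0.10, limma adjusted p = 0.0235). The change in mutant organoids was -0.25 (95% interval -0.46 to -0.04, adjusted p = 0.208) and was not called. The call in WT organoids was lost without any 1 of WT 1 (adjusted p = 0.0561), WT 2 (0.0513), WT 4 (0.0544), WT + TNFa 1 (0.0771) and WT + TNFa 4 (0.0662), and with the 8 WT arrays alone (0.0537). Since the mean with TNFa lay in that dim range in mutant (6.45 log2) and below it in WT organoids (6.30), its fold change is uncertain.

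Cldn8 encodes a claudin that bars sodium from leaking back in the distal colon. Its log2 signal was 10.61, 10.60, 10.60 and 10.78 in mutant + TNFa organoids, against 11.14, 11.05, 11.02 and 11.12 in mutant organoids. In WT + TNFa organoids it was 10.74, 10.96, 10.52 and 10.44, against 11.14, 11.10, 11.08 and 11.10 in WT organoids. Treated arrays lay below untreated ones in both genotypes, and the WT + TNFa arrays were the most scattered (SD 0.23 against 0.03 in WT). TNFa lowered Cldn8 by 1.35-fold in mutant (log2 change -0.44, SE 0.09, limma adjusted p = 0.00445) and by 1.36-fold in WT organoids (-0.44, SE 0.09, adjusted p = 0.00278).

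Cldn4, a barrier claudin, was the only one of the 10 called as higher with TNFa in both genotypes. Its log2 signal was 11.55, 11.40, 11.63 and 11.47 in mutant + TNFa organoids, against 11.14, 11.13, 11.24 and 11.26 in mutant organoids. In WT + TNFa organoids it was 11.57, 11.80, 11.70 and 11.87, against 11.29, 11.41, 11.48 and 11.44 in WT organoids. The groups did not overlap in either genotype. The rise was 1.25-fold in mutant (log2 change 0.32, SE 0.07, limma adjusted p = 0.00902) and 1.26-fold in WT organoids (0.33, SE 0.07, adjusted p = 0.00505). Cldn3, its neighbour on chromosome 5 with no annotated gene between them, was not called, at 0.05 log2 in mutant (95% interval -0.05 to 0.15, adjusted p = 0.696) and 0.04 in WT organoids (95% interval -0.06 to 0.15, adjusted p = 0.629).

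Cldn7 and Cldn23, like Cldn3, had small changes with TNFa in both genotypes. Cldn7, whose loss in mice inflames the gut, had group means of 12.50 ± 0.02 log2 in mutant + TNFa, 12.51 ± 0.04 in mutant, 12.51 ± 0.03 in WT + TNFa and 12.47 ± 0.03 in WT organoids (SD, n = 4 each). A signal this bright lies near the highest value on these arrays (12.9 log2). For Cldn23, a claudin of differentiated colonocytes, the change was 0.02 log2 in mutant (95% interval -0.10 to 0.15, limma adjusted p = 0.931) and 0.04 in WT organoids (95% interval -0.08 to 0.17, adjusted p = 0.738). All groups overlapped for both genes.

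Occludin and the scaffolds gave smaller or less certain changes. Ocln was not called, at -0.10 log2 in mutant (95% interval -0.24 to 0.04, limma adjusted p = 0.543) and -0.01 in WT organoids (95% interval -0.15 to 0.13, adjusted p = 0.947). Tjp3 had 10.74, 10.75, 10.70 and 10.71 log2 in mutant + TNFa organoids, against 10.53, 10.55, 10.41 and 10.55 in mutant organoids. It rose 1.16-fold there (log2 change 0.22, SE 0.06, adjusted p = 0.0313), but the call was lost without any 1 of 7 of the 8 mutant arrays (adjusted p = 0.0526 to 0.103), the exception being mutant 4. Tjp3 changed by 0.11 log2 in WT organoids (adjusted p = 0.248), where the groups overlapped. Tjp1 had 8.81, 8.98, 8.87 and 8.87 log2 in WT + TNFa organoids, against 8.57, 8.65, 8.70 and 8.74 in WT organoids. These groups did not overlap, but the change of 0.22 log2 (SE 0.07, adjusted p = 0.0696) was not called, except with a stricter filter (adjusted p = 0.0455) or without mutant 3 (0.0433). In mutant organoids Tjp1 changed by 0.02 log2 (adjusted p = 0.949).

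**Figure D2:**
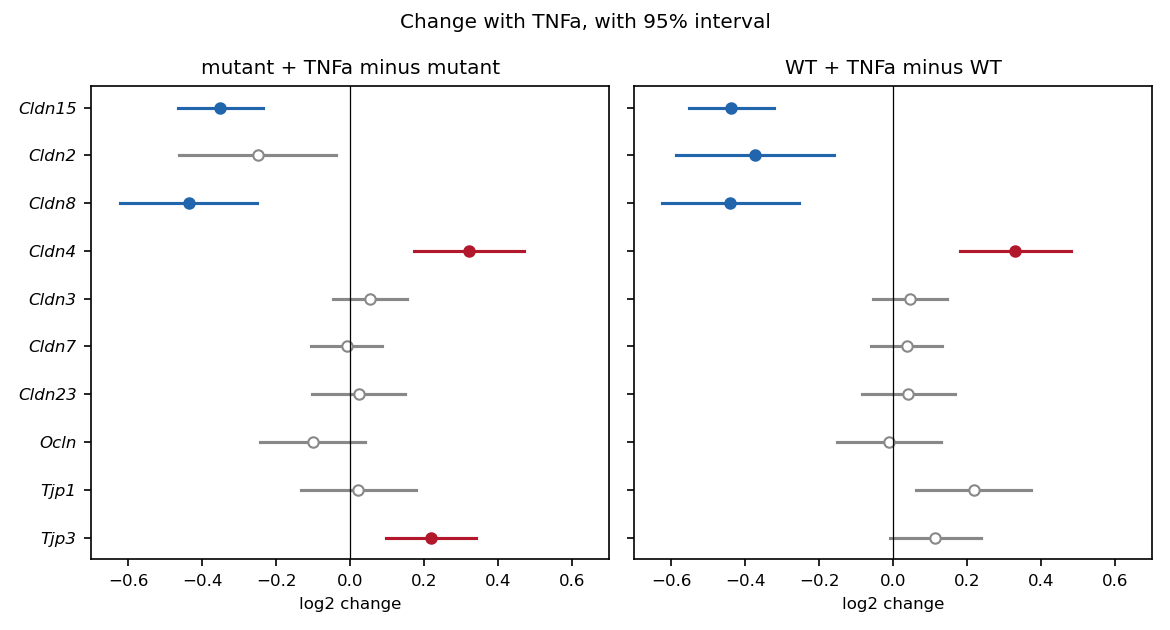
Log2 change with TNFa for each of the 10 genes in mutant (left) and WT (right) organoids, with 95% intervals from limma. Filled points were called (red higher, blue lower). Cldn8 and Cldn15 were lower and Cldn4 higher in both panels.

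Markers of cell types within the organoids also differed between treated and untreated groups. Of 8 crypt base and stem cell markers on the arrays, 3 rose with TNFa in mutant (Slc12a2, Sox9 and Cd44) and 4 in WT organoids (these and Ascl2), and 0 fell, beside the shares of all genes given above. The stem cell marker Lgr5 was not called, at -0.08 log2 in mutant (adjusted p = 0.814) and -0.21 in WT organoids (adjusted p = 0.189), and in WT organoids 5 of the 8 had positive changes. A list's summed level is the log2 of its linear signals added up, so it weighs bright genes most, here Slc12a2. For these 8 it ran from 11.98 to 12.05 log2 in mutant + TNFa and from 11.61 to 11.72 in mutant organoids. It ran from 11.83 to 12.02 in WT + TNFa and from 11.40 to 11.73 in WT organoids. Of 9 surface colonocyte markers 1 rose and 1 fell in mutant, and 2 rose and 1 fell in WT organoids. Their summed levels overlapped, at 14.75 to 14.82 in mutant + TNFa and 14.69 to 14.81 in mutant organoids, and at 14.75 to 14.86 in WT + TNFa and 14.71 to 14.83 in WT organoids. Of 8 goblet cell markers Muc2 fell in WT organoids and 0 were called in mutant ones (limma). Positive changes were seen for 0 of the 8 in WT and 2 in mutant organoids. The summed level of these markers was 14.79 to 14.81 in mutant + TNFa and 14.81 to 14.88 in mutant organoids. It was 14.78 to 14.86 in WT + TNFa and 14.89 to 14.94 in WT organoids, which did not overlap. Lyz2, the only immune marker bright enough to be tested, fell in WT organoids (log2 change -0.74, adjusted p = 0.0244) and changed by 0.37 in mutant organoids (adjusted p = 0.409). The part of these shifts in the claudin changes was not tested.

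Between genotypes, Cldn15 alone of the 10 was called, and it was lower in the mutant. With TNFa 1 of 10 genes was called, where 2.69% of tested genes were (1.56% higher and 1.13% lower). Without TNFa 1 of 10 was called, where 2.48% were (1.00% higher and 1.48% lower). Using the values given above, all 4 mutant + TNFa arrays lay below all 4 WT + TNFa arrays, and all 4 mutant arrays below all 4 WT arrays. Cldn15 was 1.20-fold lower in mutant + TNFa than in WT + TNFa organoids (log2 change -0.27, SE 0.05, limma adjusted p = 0.0108) and 1.28-fold lower in mutant than in WT organoids (-0.35, SE 0.05, adjusted p = 9.68e-04). With only the 8 arrays of the groups compared, the first lost its call (adjusted p = 0.0748), and without array WT + TNFa 2 it was -0.25 (adjusted p = 0.0212). From low to high, its group means were 8.92 ± 0.09 log2 in mutant + TNFa, 9.19 ± 0.04 in WT + TNFa, 9.27 ± 0.05 in mutant and 9.63 ± 0.04 in WT organoids (SD, n = 4 each). Of neighbours in that order only WT + TNFa and mutant overlapped. Of 9 surface colonocyte markers, 1 was called lower in the mutant with TNFa (Slc20a1) and 2 without it (Slc20a1 and Ceacam20), and 0 were called higher. In both comparisons 3 of the 9 had positive changes, such as Slc26a3 (0.17 log2 with TNFa, adjusted p = 0.177, and 0.22 without it, adjusted p = 0.0665), and the summed levels overlapped as given above. The groups did not overlap for 6 of the 9 with TNFa and 3 without it, against 8.89% and 9.34% of tested genes. Their median size of change was 0.20 and 0.19 log2, against 0.08 and 0.07 over all tested genes. The crypt base marker Smoc2 (1 of 8) was higher in mutant + TNFa than in WT + TNFa organoids. So was Lyz2 (log2 change 1.25, limma adjusted p = 0.00177). Of the 8 crypt base markers, 6 had positive changes with TNFa and 7 without it. The groups did not overlap for 3 and 2 of these 8, beside the same shares of tested genes. Of the 8 goblet cell markers 0 were called in either comparison, and 4 had positive changes with TNFa and 1 without it. Their summed levels, given above, overlapped with TNFa, and without it those of mutant lay below those of WT organoids. The part of these differences in that of Cldn15 was not tested. The 2 genotype comparisons share no array, but each shares its arrays with the TNFa comparisons.

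Cldn4 also had lower signal in the mutant, without a call. The mutant + TNFa values overlapped with those of WT + TNFa organoids (log2 change -0.22, 95% interval -0.37 to -0.07, limma adjusted p = 0.129). The mutant values lay below all WT ones (-0.21, 95% interval -0.36 to -0.06, adjusted p = 0.156). Both were called when the variance was fitted with a trend and robustly, changed together (adjusted p = 0.0330 and 0.0453). Tjp1 was not called either, although its mutant + TNFa arrays (8.57 to 8.78) lay below its WT + TNFa arrays (8.81 to 8.98; log2 change -0.18, adjusted p = 0.291). The groups did not overlap for 2 of 10 genes with TNFa and 2 without, against 8.89% and 9.34% of tested genes. The other 7 genes had changes between -0.05 and 0.15 log2 in these comparisons, with adjusted p of 0.541 or above.

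The TNFa effects of the 10 genes were not found to differ between genotypes. In the test of the difference (mutant minus WT), 0 of 10 genes were called by limma and 0 had an unadjusted p under 0.05, where 0.00850% of tested genes, a single one, were called. The difference was 0.09 log2 for Cldn15 (95% interval -0.08 to 0.25), 0.00 for Cldn8 (-0.26 to 0.27), -0.01 for Cldn4 (-0.22 to 0.20) and 0.12 for Cldn2 (-0.18 to 0.43). For Tjp1, called in neither genotype, it was -0.20 (-0.42 to 0.02), and for Tjp3, called in the mutant, it was 0.10 (-0.07 to 0.28). These intervals leave room for differences as large as the effects of TNFa on Cldn2, Tjp1 and Tjp3.

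**Figure D3:**
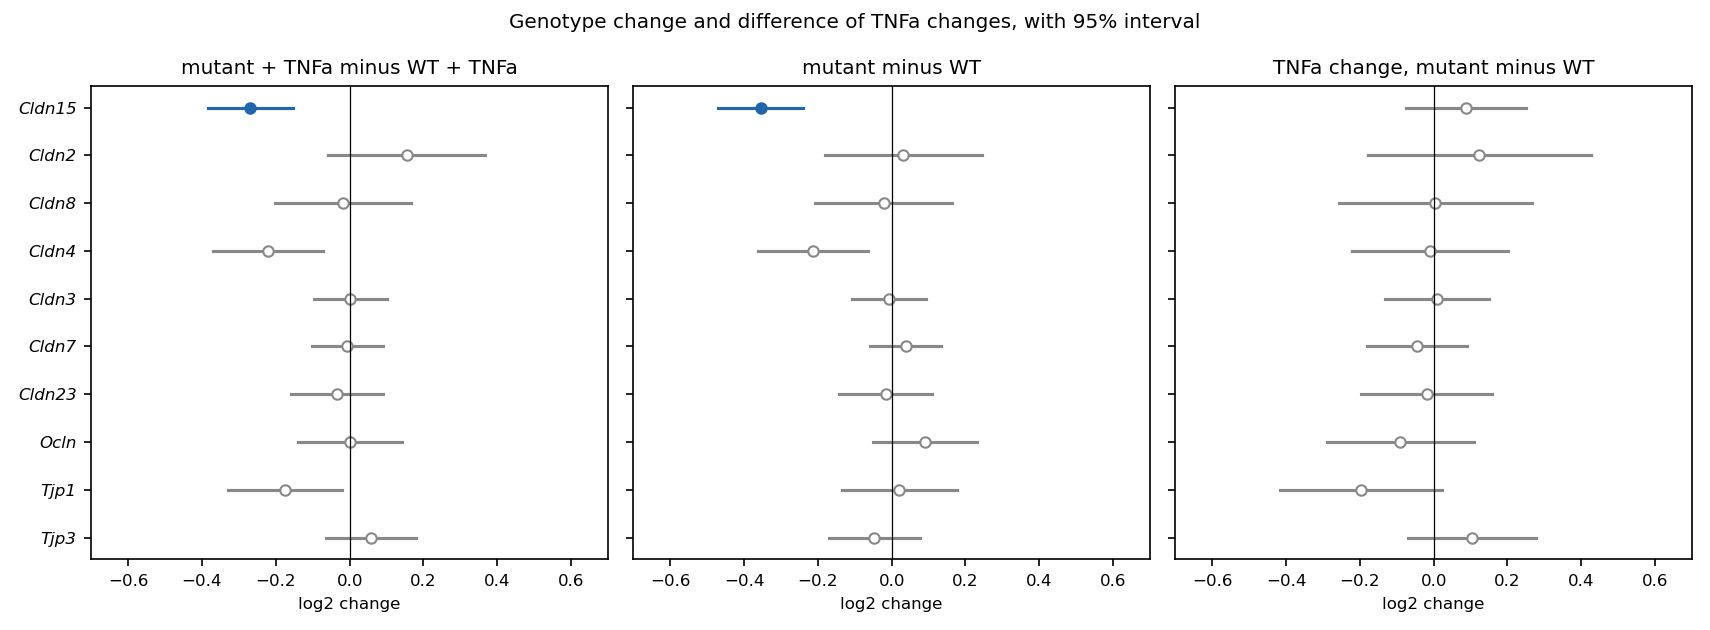
Log2 change of mutant against WT organoids with TNFa (left) and without it (middle), and the difference of the TNFa changes, mutant minus WT (right), with 95% intervals from limma. Filled points were called. Cldn15 is filled in the left and middle panels, at -0.27 and -0.35, and no gene is filled in the right one.

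The largest change with TNFa among the tight junction genes tested was outside the 10. Of 66 further genes (other claudins, other membrane proteins, plaque and polarity proteins, and others), 60 were on the arrays and 43 were tested. With TNFa, 3 rose and 0 fell in mutant organoids, and 6 rose and 1 fell in WT organoids, where 5.98% and 10.8% of all tested genes were called. Their median change was 0.00 log2 in mutant and 0.01 in WT organoids, against 0.01 over all tested genes in both. Cldn14, a claudin known to limit cation flow in the inner ear and kidney, rose most. Its mean was 8.79 ± 0.08 log2 in mutant + TNFa and 7.64 ± 0.06 in mutant organoids, and 8.54 ± 0.19 in WT + TNFa and 7.56 ± 0.10 in WT organoids (SD, n = 4 each). The rise was 2.21-fold in mutant (log2 change 1.14, SE 0.08, limma adjusted p = 7.31e-08) and 1.98-fold in WT organoids (0.99, SE 0.08, adjusted p = 3.82e-07). F11r, which encodes the junctional adhesion molecule JAM-A, rose 1.16-fold in mutant (adjusted p = 0.0239) and 1.18-fold in WT organoids (adjusted p = 0.00650). The first call was lost without any 1 of 5 arrays (adjusted p up to 0.0933) and the second only with the 8 arrays of the WT groups alone (0.0648). The polarity gene Pard3b rose 1.20-fold in mutant organoids (adjusted p = 0.0187, or up to 0.0739 without any 1 of 4 arrays).

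In WT organoids the myosin light chain kinase gene Mylk, whose protein contracts the actin ring under the junction, rose 1.28-fold. Its mean was 6.85 ± 0.16 log2 in WT + TNFa, against a dim 6.50 ± 0.07 in WT organoids (SD, n = 4 each; log2 change 0.36, SE 0.08, limma adjusted p = 0.00585). In mutant organoids Mylk changed by -0.02 log2 (adjusted p = 0.960), and the difference between the genotypes (-0.37, SE 0.11) had adjusted p = 0.400. The scaffold gene Amotl1 was higher with TNFa, at 6.65 ± 0.21 log2 in WT + TNFa against a dim 6.18 ± 0.28 in WT organoids (SD, n = 4 each), so its size of change is uncertain. Cgn, which encodes cingulin, rose 1.22-fold and the myosin light chain gene Myl12a 1.15-fold, and Ybx3, a factor that binds ZO-1, fell 1.12-fold. Each of these 4 calls was lost without any 1 of 3 to 14 arrays, with adjusted p up to 0.0678 for Amotl1, 0.140 for Cgn, 0.118 for Myl12a and 0.131 for Ybx3. Between genotypes, 0 of 43 were called with TNFa (4 at an unadjusted p under 0.05) and 1 without, Pard3b, which was 1.21-fold lower in the mutant (adjusted p = 0.0242, or up to 0.0806 without any 1 of 6 arrays). The difference of effects called 0 of 43 (3 at an unadjusted p under 0.05).

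**Figure D4:**
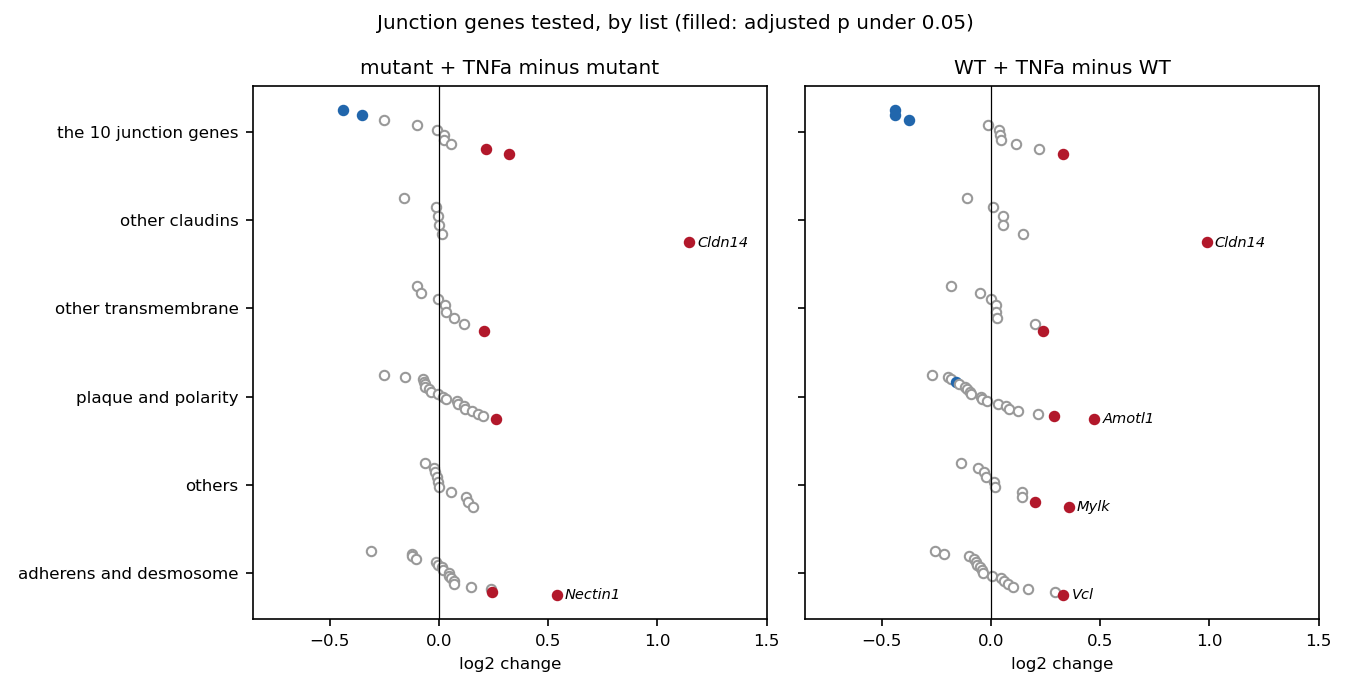
Log2 change with TNFa of every tested junction gene, by list, in mutant (left) and WT (right) organoids. Each point is a gene, spread vertically by rank, and filled points were called (red higher, blue lower). Cldn14, at 1.14 and 0.99, lies to the right of all the others.

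Genes of the adherens junction and desmosome, which lie below the tight junction, were tested in the same way. Of 17 tested, 2 rose and 0 fell with TNFa in mutant organoids, and 1 rose and 0 fell in WT organoids, where 5.98% and 10.8% of all tested genes were called. The adhesion genes Nectin1 (1.45-fold, limma adjusted p = 0.00258) and Nectin2 (1.18-fold, adjusted p = 0.0275) rose in mutant organoids, and Vcl, which encodes the actin linker vinculin, rose 1.26-fold in WT organoids (adjusted p = 0.0321). The calls of Nectin2 and Vcl were each lost without any 1 of 5 arrays, with adjusted p up to 0.0919 and 0.0896.

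Among 12 tested transcription factor genes linked to claudin genes, Klf4 and Hnf4g fell with TNFa in WT organoids and 0 rose, where 10.8% of all tested genes were called. Between genotypes 1 of the 12 was called with TNFa and 1 without it, where 2.69% and 2.48% of all tested genes were. Klf4, a factor of differentiated epithelium, had 10.16 ± 0.21 log2 in WT + TNFa and 10.71 ± 0.03 in WT organoids (log2 change -0.55, limma adjusted p = 3.34e-04). Hnf4g, a factor of enterocytes, fell too (log2 change -0.36, adjusted p = 0.00723, or 0.0567 with the WT arrays alone). Neither was called in mutant organoids (-0.11 and -0.18, adjusted p = 0.634 and 0.282), and the differences between genotypes had adjusted p = 0.345 and 0.791. Hnf4g was higher in mutant + TNFa than in WT + TNFa organoids (0.44, adjusted p = 0.00555). Cdx2, an intestinal factor known to activate Cldn2, was lower in mutant than in WT organoids, at 8.46 ± 0.15 against 8.99 ± 0.13 log2 (SD, n = 4 each; log2 change -0.52, adjusted p = 0.0158). That call was lost without mutant 1 (adjusted p = 0.0600), WT 1 (0.0501) or WT 2 (0.0602), and with TNFa the change was -0.41 (adjusted p = 0.0650). Cldn2 itself differed by 0.03 log2 between mutant and WT organoids (95% interval -0.18 to 0.24, adjusted p = 0.940).

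The 10 genes did not follow a single pattern over the 16 arrays. Cldn8 ran with Cldn2 (Pearson r = 0.75) and Cldn15 (0.73) and against Cldn4 (-0.70) and Tjp3 (-0.71). Once group means were removed these were 0.39, 0.22, -0.21 and 0.00, so most of the likeness lay between groups. Cldn8 and Ocln kept a correlation within groups (0.61, against 0.52 over all arrays), as did Cldn4 and Tjp1 (0.63 against 0.71). The tested genes outside the 10 most like Cldn15 over the 16 arrays were Sptssb (r = 0.97), Mgst1 (0.95) and Acp5 (0.94), with within-group values of 0.47, 0.32 and 0.29. Those most like Cldn4 were BC021767, Rras and Rhbdf2 (0.95 to 0.96, and 0.72 to 0.78 within groups). For Cldn8 they were Cyp2d40, Ebpl and Csrp2 (0.94 to 0.95, and 0.67 to 0.84 within groups). Tjp3 was most like Smox, Celsr1 and Gpa33 (0.91 to 0.92, and 0.71 to 0.85 within groups). Cldn2 was most like Pgap3, Tshz1 and Tbc1d30 (0.86 to 0.87, and 0.61 to 0.66 within groups). All of these correlations rest on the same 16 arrays in 4 groups and are given as descriptions.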

How the data were processed

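The deposited values were log2 signals per probe set that the authors computed with RMA in Affymetrix Expression Console, per the submitters' processing notes, from 400 ng of amplified, biotin-labelled RNA per sample, per the labels' protocols. The labels and notes name no version, array design or build. Of 19825 probe sets, 18851 carried 1 gene symbol, 974 none and 0 several, giving 18850 genes, each represented by its brightest probe set. A gene was tested if above its array's 40th percentile on at least 4 of 16 arrays, which left 11766. Group means were compared in limma 3.58.1 (R 4.3.3) by a single model of all 16 arrays, after the code was tested on simulated data. Groups came from sample titles. Named genes were the 10 members, up to 4 called genes each way from the junction, adhesion and transcription factor lists, and the 3 most correlated genes per called member. F11r and Myl12a in WT organoids were named after their values were seen, to complete a count, as were the marker genes named beside their lists. Members and lists were chosen with earlier results of these data known. Alternatives changed the filter, probe set choice, variance model, weights, scaling, arrays fitted and block, and left out each array. The number of arrays limits the precision.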

Additional observations from a re-analysis of the deposited data

Results flagged for a closer look

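Of 40 sets of 4 arrays (10 genes in 4 groups), 2 held an array far from the other 3, and chance gives such a gap in about 1 of 20 sets. For Cldn8, mutant + TNFa 4 had 10.78 log2 against 10.60 to 10.61 on the other arrays of its group, a gap of 0.941 of the group's range. For Tjp3, mutant 3 had 10.41 log2 against 10.53 to 10.55 on the others, a gap of 0.897 of the range. The Cldn8 call for TNFa in mutant organoids held without that array. The Tjp3 call did not hold without mutant 3 (limma adjusted p = 0.103).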

How the results depend on the processing

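In 26 alternatives, 16 of which left out 1 array each, the calls of Cldn15, Cldn8 and Cldn4 with TNFa in both genotypes, and of Cldn15 between genotypes without TNFa, all held. Over 1285 recomputed values of the 10 genes, 17 calls were lost, 4 gained and 0 reversed, and 59 changes called in neither setting changed sign, each of them 0.0415 log2 or less in size as reported. With only the groups compared, 0 of the 10 genes were called between genotypes with TNFa, and with a variance trend and robust fitting (changed together) 2 were called in either genotype comparison. Leaving out 1 array gave 3 to 4 of the 10 for TNFa in mutant, 3 to 5 for TNFa in WT and 1 in either genotype comparison. Over all genes, TNFa in WT called 1269 (720 with only the groups compared, 1761 with array weights), TNFa in mutant 704 (1095 with array weights), the genotype with TNFa 317 (617 with array weights, 185 with only the groups compared) and without TNFa 292 (443 with array weights). The difference of effects called 1 gene, 3 with a stricter filter or array weights, 5 with a variance trend and robust fitting and 0 with the replicate block. Without 1 array the counts were 955 to 1430, 504 to 900, 192 to 340, 198 to 435 and 0 to 4 in the same order. The 66 further junction genes, with 7 calls for TNFa in WT and 3 in mutant, had 2 in WT with only the groups compared, 4 there without a filter, 10 there with a variance trend and robust fitting, 5 in mutant with array weights, and 3 to 6 and 1 to 3 without 1 array. Between genotypes they had 1 with TNFa and array weights in place of 0, and without TNFa 0 with no or a stricter filter and 2 with a variance trend and robust fitting in place of 1, or 0 to 1 without 1 array. The stricter filter left out Cldn2, Amotl1, Mylk and Pard3b, and fitting only the groups compared gives no difference of effects. The causes were not tested. The replicate numbers of the titles were not taken as pairs, since no label says what they stand for. Same-numbered arrays had correlations of deviations from their group means of -0.31 to 0.25. These do not settle whether such arrays shared an animal or culture. With the numbers as a replicate block Tjp3 lost its call in mutant organoids (limma adjusted p = 0.127), as it did without a filter (0.0818) or with quantile normalization again (0.0544). The block also ended the calls of F11r (0.0981) and Nectin2 (0.104) in mutant and of Myl12a (0.144), Vcl (0.0557) and Ybx3 (0.154) in WT organoids. Probe sets near the dim range, such as that of Cldn2, and near the top, such as that of Cldn7, limit what a change shows.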
